A study of Homo sapiens with 17 samples.

Results

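The genes described here are 40 genes of the integrated stress response and of amino acid supply, out of 57638 annotated genes. They were chosen by name, with earlier results of these data known. They comprise 6 transcription factors or coregulators (ATF4, ATF3, DDIT3, CEBPB, CEBPG and NUPR1) and 7 other stress response genes (TRIB3, PPP1R15A, SESN2, CHAC1, EIF4EBP1, STC2 and VLDLR). There were also 11 genes of amino acid and one-carbon synthesis, 7 amino acid transporters, and 9 genes of tRNA charging and export, which are cytosolic tRNA synthetases and the exporter XPOT. The RNA came from 17 libraries of the leukaemia line K562, which was derived from chronic myeloid leukaemia and expresses erythroid genes. Per the labels and the design text, the cells received CRISPR plasmids by electroporation, built for activation of the gene where a label names one, were then treated with an antisense oligonucleotide, and were taken on day 6. Libraries were 3′ tag libraries of total RNA with molecular identifiers. Levels are given as CPM, the deposited estimated counts of a gene scaled to the reads assigned to genes in its library.

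The labels 23-GOLGA8N, 22-LAPTM4B, 21-CTPS2 and 20-ARSF carry a number before the gene and are called prefixed. The 13 unprefixed libraries are GOLGA8N 1 and 2, LAPTM4B 1 and 2, TTR, TRPC5OS, ADORA2A, UBE2V1, COL6A6, E7 and the reference libraries Neg, RFP and GFP, whose labels name no human gene. The GOLGA8N arm holds GOLGA8N 1, GOLGA8N 2 and 23-GOLGA8N. The LAPTM4B arm holds LAPTM4B 1, LAPTM4B 2 and 22-LAPTM4B. The labels say neither what the prefixes and E7 mean nor whether the libraries are separate cultures. The p-values therefore measure how these libraries vary, and part of that variation may be technical. Whatever differs along with the prefix cannot be told apart from it.

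In the integrated stress response, kinases that sense amino acid shortage, misfolded protein, heme shortage or double-stranded RNA phosphorylate the initiation factor eIF2. General translation then slows, while the ATF4 mRNA is translated better because of its upstream reading frames. ATF4, often paired with a C/EBP protein, switches on genes that make, import and charge amino acids, and DDIT3 and ATF3 act further along the same path. PPP1R15A closes the loop by directing a phosphatase to eIF2.

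Reads assigned to genes numbered 549962 in GFP and 2174638 to 4090195 in the other libraries, so 3 reads, the lowest count taken as detectable, were 5.45 CPM in GFP but 0.734 CPM in 20-ARSF. GFP was the least like the rest, with Spearman's rho of 0.753 to 0.783 to the others over 7310 genes, where the other 16 libraries had 0.838 to 0.912 among themselves. Of 13 libraries named for a human gene, 3 had that gene above every library not named for it: UBE2V1, TTR and 23-GOLGA8N. The 0.318 CPM of GOLGA8N in 23-GOLGA8N was below the 3 reads taken as detectable, 1.38 CPM there. It was therefore not counted as detected, and the highest library not named for GOLGA8N had 0.249 CPM. GOLGA8N 1 and 2 had no GOLGA8N read, and the LAPTM4B libraries lay within the range of the others, so these names stand for the labels only. All 12 erythroid markers averaged at least 1 CPM. Of the 10 lymphoid markers 3 did, and MS4A1, CD79B, CD3E and CD2 were at 0 in every library, although the labels call the cells lymphoblasts. Of 7 fibroblast markers 2 averaged at least 1 CPM and LUM and PDGFRB were at 0. Their summed level was 21.2 to 38.1 CPM in the prefixed libraries and 40.003 to 64.3 CPM in the unprefixed ones. Most of this sum was COL1A2, which by itself overlapped between the groups. It ran from 20.7 to 35.2 CPM in the prefixed libraries and from 32.7 CPM in GFP to 62.6 CPM in the unprefixed ones. The part of this sum in the results on the prefix was not tested.

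ATF4 reaches its target genes through the C/EBP-ATF response element, whose core can be written TGATGNAA. The window from 250 bases before to 50 bases after the RefSeq start (GRCh38.p14) was found for 33 of the 40 genes. Of these windows 9 (27.27%) held the core on either strand, against 3.62% of all 35116 windows. SLC7A11, NUPR1, EIF4EBP1, PSPH, SHMT2, ALDH1L2 and PYCR1 had no window and were not searched. By class, matches were found in 4 of 9 tRNA synthetase and export genes (AARS, NARS, MARS and IARS), in 2 of 6 transporters (SLC3A2 and SLC7A1), and in ATF3, CHAC1 and ASNS, 1 in each of the remaining classes. The ER stress response element, searched on both strands, was found in 0 of 33 windows and in 0.08% of all. A match is a description of letters, not of binding. These 4 are shown because the genes recur in the results, 5′ to 3′ along each gene's own strand, with the core or its reverse complement in capitals.
ATF3: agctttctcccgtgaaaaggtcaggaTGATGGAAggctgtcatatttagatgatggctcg
ASNS: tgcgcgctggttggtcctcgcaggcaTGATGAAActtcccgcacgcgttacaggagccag
AARS: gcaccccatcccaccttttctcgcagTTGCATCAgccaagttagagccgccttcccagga
SLC3A2: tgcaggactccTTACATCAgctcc
The ATF3 stretch is chr1:212565190-212565249 on the plus strand, with the core beginning 191 bases before the start. The ASNS stretch is chr7:97872443-97872502 on the minus strand, with the core 68 bases before the start, in the promoter region known for the response of ASNS to nutrients. The AARS stretch is chr16:70289660-70289719 on the minus strand, 187 bases before the start. The SLC3A2 stretch is chr11:62881725-62881748 on the plus strand, and its match begins 37 bases after the start, inside the transcribed region.

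The prefixed libraries were compared with the unprefixed ones first. SLC3A2, the heavy chain shared by several amino acid transporters, rose by 0.67 on the log2 scale in the prefixed libraries and was the only one of these genes called. ATF4, its stress partners DDIT3 and ATF3, the cystine transporter SLC7A11 and 3 tRNA synthetases had higher means there without passing the adjusted test. The pattern was uneven. 23-GOLGA8N, 22-LAPTM4B and 21-CTPS2 carried most of it, though ASNS in 21-CTPS2 lay within the unprefixed range. 20-ARSF largely did not, yet its SLC3A2, WARS and PPP1R15A lay above the unprefixed medians. The unprefixed library E7 was high in CPM in the same classes apart from the transporters. In such bulk RNA, a change in every cell and a change in part of the cells cannot be told apart.

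A gene was called when edgeR's quasi-likelihood test gave a Benjamini-Hochberg adjusted p under 0.05 over all genes. Of 12319 genes tested, 35 (0.284%) were called, 29 of them higher (0.235%). Of 38 stress response and amino acid genes that passed the filter on low counts, 1 was called, 31 had a positive log2 fold change and 7 a negative one, whereas 47.8% of all genes had a positive one. The median log2 fold change was 0.22 for these genes and -0.02 for all genes tested. At an unadjusted p under 0.05, 10 of the 38 genes were higher and 0 lower, against 4.46% of all genes higher and 4.9% lower. Because the set was chosen with earlier results of these data known, these shares are descriptions and no independent evidence. ALDH1L2 and VLDLR did not pass the filter.

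**Figure D1:**
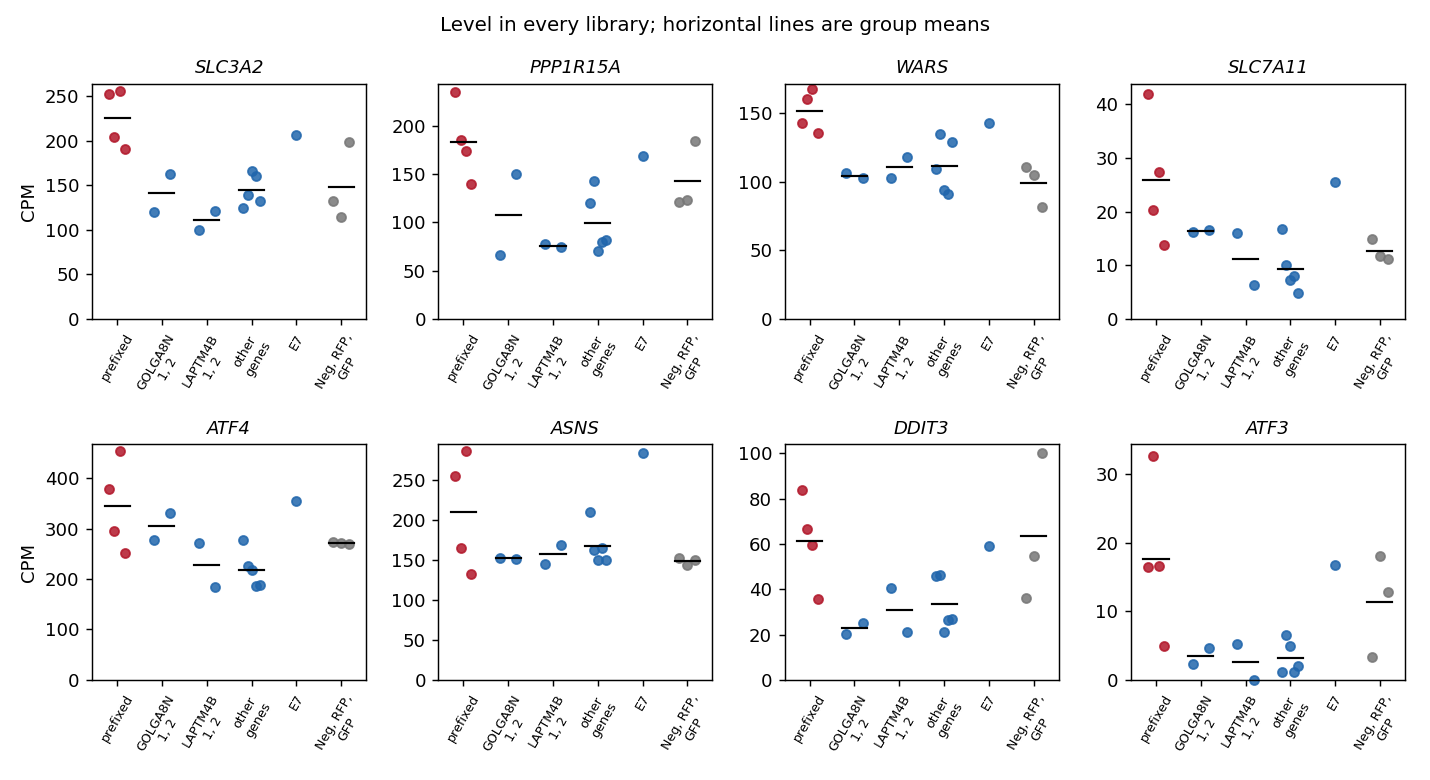
Level (CPM, vertical axes from 0) of 8 genes in every library, grouped along the horizontal axis with prefixed libraries in red, other unprefixed libraries in blue and Neg, RFP and GFP in grey. Each point is 1 library and horizontal lines are group means; for SLC3A2 the 4 prefixed libraries lie between 190.2 and 256 CPM, and E7 and GFP are the unprefixed libraries that reach into this range.

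Among the transcription factors, ATF4, the central activator of the response, had 454 CPM in 23-GOLGA8N, 378 in 22-LAPTM4B, 295 in 21-CTPS2 and 251 in 20-ARSF. The unprefixed libraries ran from 184 CPM through a median of 271 to 354 in E7. The groups overlapped, with 20-ARSF below the unprefixed median. Its log2 fold change was 0.45 ± 0.15 (SE), with an edgeR adjusted p of 0.26.

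DDIT3, also called CHOP, which drives cell death in prolonged stress, had 83.8, 66.5, 59.7 and 35.8 CPM in 22-LAPTM4B, 21-CTPS2, 23-GOLGA8N and 20-ARSF. Its unprefixed values ran from 20.2 CPM through a median of 36.1 to 100.007 CPM in GFP, the highest of all libraries and the shallowest. For DDIT3 the log2 fold change was 0.69 ± 0.29 (SE), with an edgeR adjusted p of 0.432. ATF3, an early stress-induced factor that dampens transcription, had 32.7 CPM in 21-CTPS2, 16.6 in 23-GOLGA8N, 16.5 in 22-LAPTM4B and 4.89 in 20-ARSF. Its unprefixed values ran from 0 through a median of 4.58 to 18.004 CPM, with RFP, E7 and GFP the 3 above 12 CPM. Its log2 fold change was 1.60 ± 0.63 (SE; edgeR adjusted p 0.399).

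CEBPB, a dimer partner of ATF4, averaged 76.1 ± 23.1 CPM in prefixed and 59.9 ± 15.2 CPM in unprefixed libraries (SD, n = 4 and 13; edgeR adjusted p 0.629). CEBPG and NUPR1 passed the filter and were tested, but were too low for a reliable comparison by level. CEBPG was at 0 in 9 of 17 libraries and reached 23.1 CPM in COL6A6. NUPR1, a small stress-induced coregulator, reached 46.7 CPM in GFP and at most 9.66 CPM elsewhere. MARS and DDIT3 overlap by 982 bases on opposite strands, and no strand setting of the counting is given in the sources used here. Their estimated counts were fractional and added up to whole reads in nearly every library, as with 289.73 for DDIT3 and 551.27 for MARS in 22-LAPTM4B. Some reads were thus divided between the pair by estimation. The values of both genes, here and below, are uncertain to that extent.

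Of the other stress genes, PPP1R15A (GADD34), the phosphatase subunit that reverses eIF2 phosphorylation, had 235 CPM in 22-LAPTM4B, 185 in 21-CTPS2, 173 in 23-GOLGA8N and 139.6 in 20-ARSF. The unprefixed libraries ran from 66.2 CPM through a median of 120.2 to 184 in GFP, with E7 at 168. GFP, E7, GOLGA8N 2 and TRPC5OS lay above the lowest prefixed library. For PPP1R15A the log2 fold change was 0.75 ± 0.21 (SE), with an edgeR adjusted p of 0.17. PPP1R15A was called by DESeq2 (adjusted p 0.0465; 0.464% of all genes called) and by limma-voom (adjusted p 0.0439; 0.446% called).

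SESN2, a leucine sensor that restrains mTORC1, averaged 24.9 ± 7.27 CPM in prefixed and 15.1 ± 5.87 CPM in unprefixed libraries (SD, n = 4 and 13), with an edgeR adjusted p of 0.452. TRIB3, a pseudokinase that restrains ATF4 and AKT, averaged 56.3 ± 15.4 CPM in prefixed and 45.5 ± 14.4 CPM in unprefixed libraries (SD; edgeR adjusted p 0.665). STC2, a secreted glycoprotein induced by ER stress, averaged 31.1 ± 6.73 and 27.5 ± 10.9 CPM in the same order of groups, prefixed and unprefixed (SD; edgeR adjusted p 0.891). VLDLR, a lipoprotein receptor, was below 1 CPM in every library except GFP, where it had 18.6 CPM.

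No synthesis gene differed at an unadjusted p under 0.05, and 8 of the 10 tested had a positive log2 fold change. ASNS, which makes asparagine and is a classical ATF4 target, had 287 CPM in 23-GOLGA8N and 256 in 22-LAPTM4B, but 166 in 21-CTPS2 and 133 in 20-ARSF. E7 had 284 CPM, and the other 12 unprefixed libraries lay between 143 CPM in RFP and 210.3 CPM in TTR. ASNS was thus high in 3 libraries, 2 of them prefixed, and lowest of all in the prefixed 20-ARSF (log2 fold change 0.34 ± 0.18 SE, edgeR adjusted p 0.573).

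PYCR1, the last enzyme of proline synthesis, averaged 144 ± 4.16 CPM in prefixed and 138 ± 20.1 CPM in unprefixed libraries (SD; edgeR adjusted p 0.945). SHMT2, which moves a serine carbon into mitochondrial folate, averaged 101 ± 25.9 CPM in prefixed and 87.5 ± 15.7 CPM in unprefixed libraries (SD; edgeR adjusted p 0.746). PHGDH, the first enzyme of serine synthesis, averaged 16.3 ± 4.2 CPM and 14.7 ± 4.63 CPM in the prefixed and unprefixed libraries (SD; edgeR adjusted p 0.95). ALDH1L2, a mitochondrial folate enzyme, averaged 0.339 CPM over all libraries. CBS reads were shared almost evenly with its near-identical copy CBSL (ratio 1.00 to 1.21), so its values are uncertain.

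Among the transporters, SLC3A2 had 256 CPM in 23-GOLGA8N, 252 in 22-LAPTM4B, 204 in 21-CTPS2 and 190.2 in 20-ARSF. The unprefixed libraries ran from 99.8 CPM in LAPTM4B 1 through a median of 133 to 207 in E7, with GFP at 198 and ADORA2A next at 166. The groups overlapped through E7 and GFP alone. The means were 226 ± 33.5 CPM in prefixed and 145 ± 32.4 CPM in unprefixed libraries (SD, n = 4 and 13). The log2 fold change was 0.67 ± 0.15 (SE), with an edgeR adjusted p of 0.0377. The call was close to its threshold: leaving out 1 library at a time ended it in 11 of 17 cases, at adjusted p-values of 0.0541 to 0.298. These were 22-LAPTM4B (0.298), 23-GOLGA8N (0.236), 21-CTPS2 (0.0694), LAPTM4B 2 (0.0684), RFP (0.0644), GOLGA8N 1 (0.06), LAPTM4B 1 (0.0595), COL6A6 (0.0587), Neg (0.0585), TRPC5OS (0.0551) and TTR (0.0541). The log2 fold change then lay between 0.59 and 0.74, and DESeq2 (adjusted p 0.00734) and limma-voom (adjusted p 0.0234) called SLC3A2 too. Without GFP the edgeR adjusted p was 0.0241.

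SLC3A2 pairs with light chains that carry the amino acids. SLC7A11, the light chain of the cystine and glutamate exchanger, had 42.0 CPM in 22-LAPTM4B, 27.4 in 23-GOLGA8N, 20.4 in 21-CTPS2 and 13.8 in 20-ARSF. Its unprefixed values ran from 4.82 CPM in COL6A6 through a median of 11.8 to 25.5 CPM in E7. The log2 fold change was 1.04 ± 0.34 (SE), with an edgeR adjusted p of 0.246. SLC7A5, the light chain for leucine and other large neutral amino acids, averaged 226 ± 24.3 CPM in prefixed and 234 ± 59 CPM in unprefixed libraries (SD; edgeR adjusted p 0.984). SLC1A5, the main glutamine carrier, averaged 239 ± 29.1 CPM in prefixed and 229 ± 30.2 CPM in unprefixed libraries (SD; edgeR adjusted p 0.944). SLC7A1, SLC1A4 and SLC38A2 had log2 fold changes of -0.22 to 0.12 and edgeR adjusted p-values of at least 0.899.

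Of the tRNA synthetases, which load amino acids onto their tRNAs, 8 of 9 genes had a positive log2 fold change and 3 an unadjusted p under 0.05. WARS, for tryptophan, had 167 CPM in 23-GOLGA8N, 159.8 in 21-CTPS2, 143 in 22-LAPTM4B and 135 in 20-ARSF. Its unprefixed values ran from 81.8 CPM in GFP through a median of 106 to 143 CPM in E7, and E7 was the only unprefixed library within the prefixed range. For WARS the log2 fold change was 0.47 ± 0.14 (SE), with an edgeR adjusted p of 0.177 and a DESeq2 adjusted p of 0.028.

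AARS, for alanine, averaged 141 ± 35.2 CPM in prefixed and 116 ± 21.7 CPM in unprefixed libraries (SD; edgeR adjusted p 0.522). GARS, for glycine, averaged 183 ± 28.4 CPM in prefixed and 153 ± 24.8 CPM in unprefixed libraries (SD; edgeR adjusted p 0.474). MARS, for methionine, averaged 142 ± 21.9 CPM and 116 ± 20.5 CPM in the prefixed and unprefixed libraries (SD; edgeR adjusted p 0.618). SARS, for serine, averaged 62.1 ± 7.44 CPM and 50.7 ± 17 CPM in the same groups, with 18.2 CPM in GFP the lowest value (edgeR adjusted p 0.786). XPOT, which exports tRNA from the nucleus, had a log2 fold change of -0.07.

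**Figure D2:**
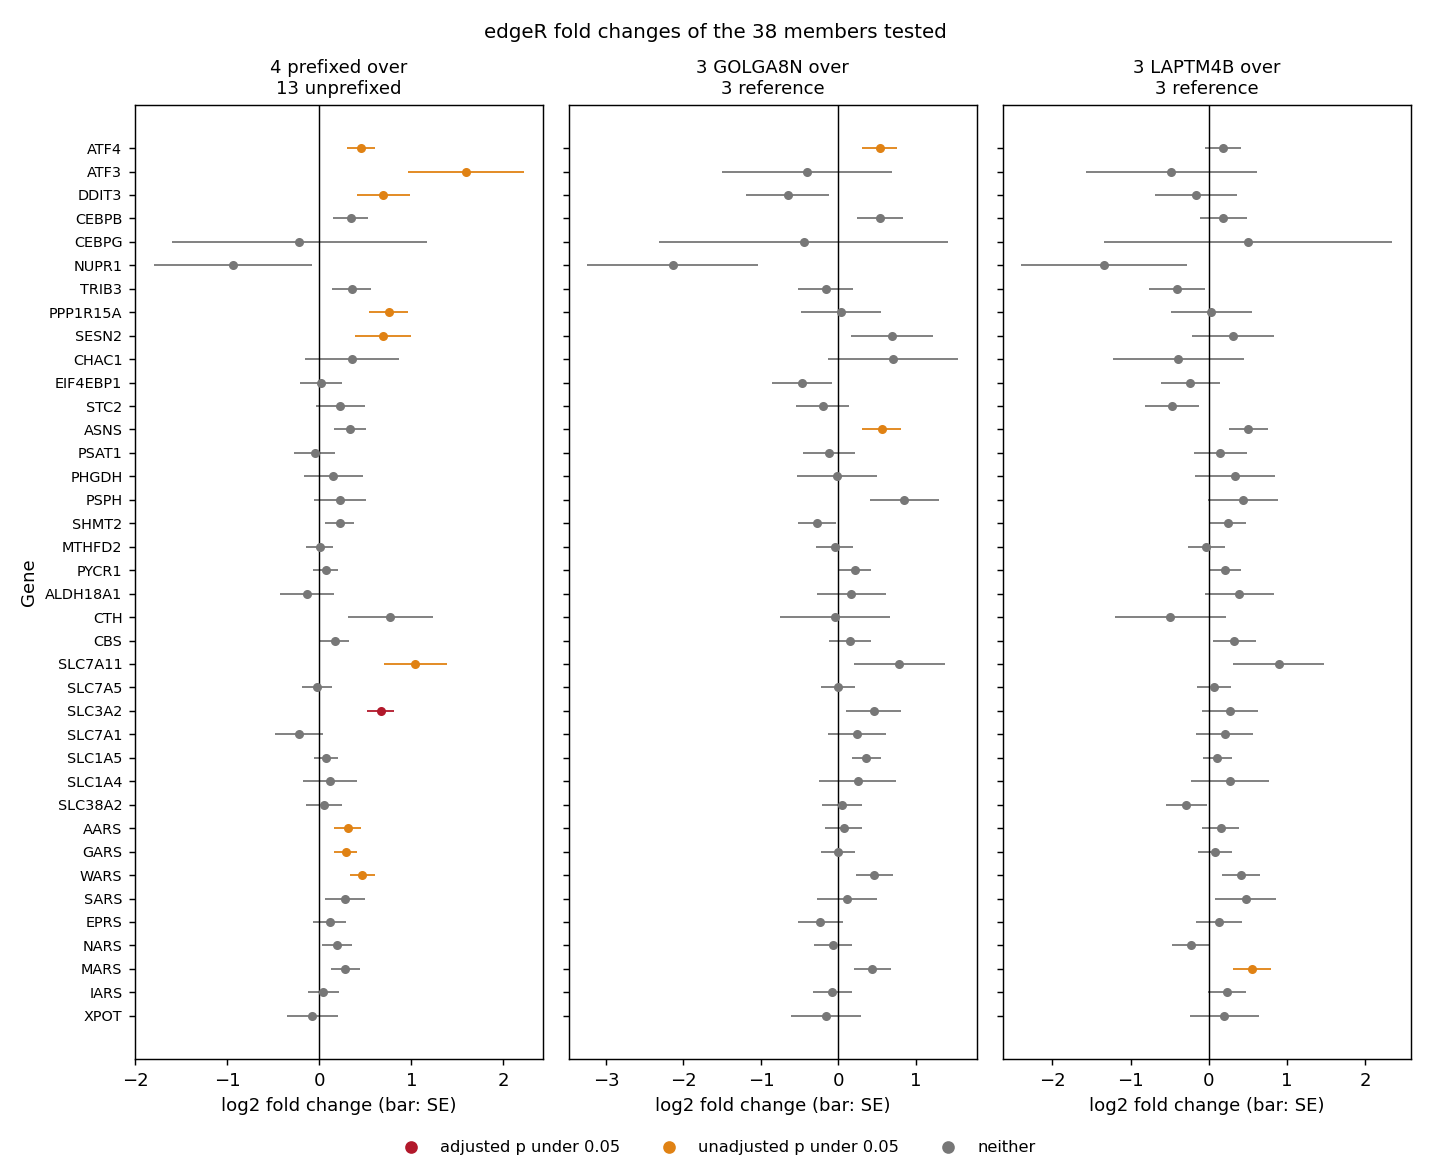
Log2 fold change (horizontal axes, bars are the standard error) from edgeR for the 38 genes tested, listed by class, for 4 prefixed over 13 unprefixed libraries, 3 GOLGA8N over 3 reference and 3 LAPTM4B over 3 reference libraries. Red marks the gene with an adjusted p under 0.05, SLC3A2 in the first panel, and orange marks genes with an unadjusted p under 0.05, which number 9 more in the first panel, 2 in the second and 1 in the third.

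The summed levels by library follow, in CPM. Summed over all 40 genes, 23-GOLGA8N had 3659 CPM, 22-LAPTM4B 3634, 21-CTPS2 3451 and 20-ARSF 2816. Among the unprefixed libraries E7 had 3359 CPM and GFP 3276, and the remaining 11 averaged 2759 ± 135 CPM (SD) and reached 2891 CPM at most. The transcription factor sum was highest in 23-GOLGA8N (595 CPM), 22-LAPTM4B (569), 21-CTPS2 (511) and E7 (503), and the 20-ARSF sum of 349 CPM ranked 12th of 17. For the other stress genes the reference library GFP (410 CPM) came first. It was followed by 22-LAPTM4B (385), 21-CTPS2 (363), 23-GOLGA8N (351) and E7 (319). For synthesis, 23-GOLGA8N (817 CPM), E7 (806) and 22-LAPTM4B (784) came first and 20-ARSF (582) last. That order held in part on other scales: in deposited TPM 22-LAPTM4B ranked 6th and 20-ARSF 16th, with GOLGA8N 1 last, and in CPM scaled by TMM 20-ARSF ranked 15th and GFP last. For the tRNA synthetases and XPOT, 22-LAPTM4B (1025 CPM), 21-CTPS2 (1009), 23-GOLGA8N (969) and E7 (966) came first. In deposited TPM 23-GOLGA8N ranked 9th for this class, at 424 TPM, behind the unprefixed LAPTM4B 2, which ranked 3rd at 506 TPM. For the transporters ADORA2A had the highest sum in CPM, 953, with 336 CPM of SLC7A5 and 296 CPM of SLC1A5, ahead of 23-GOLGA8N (926.4) and GFP (925.7). In deposited TPM 23-GOLGA8N (282) and 22-LAPTM4B (263) came first and ADORA2A ranked 4th.

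**Figure D3:**
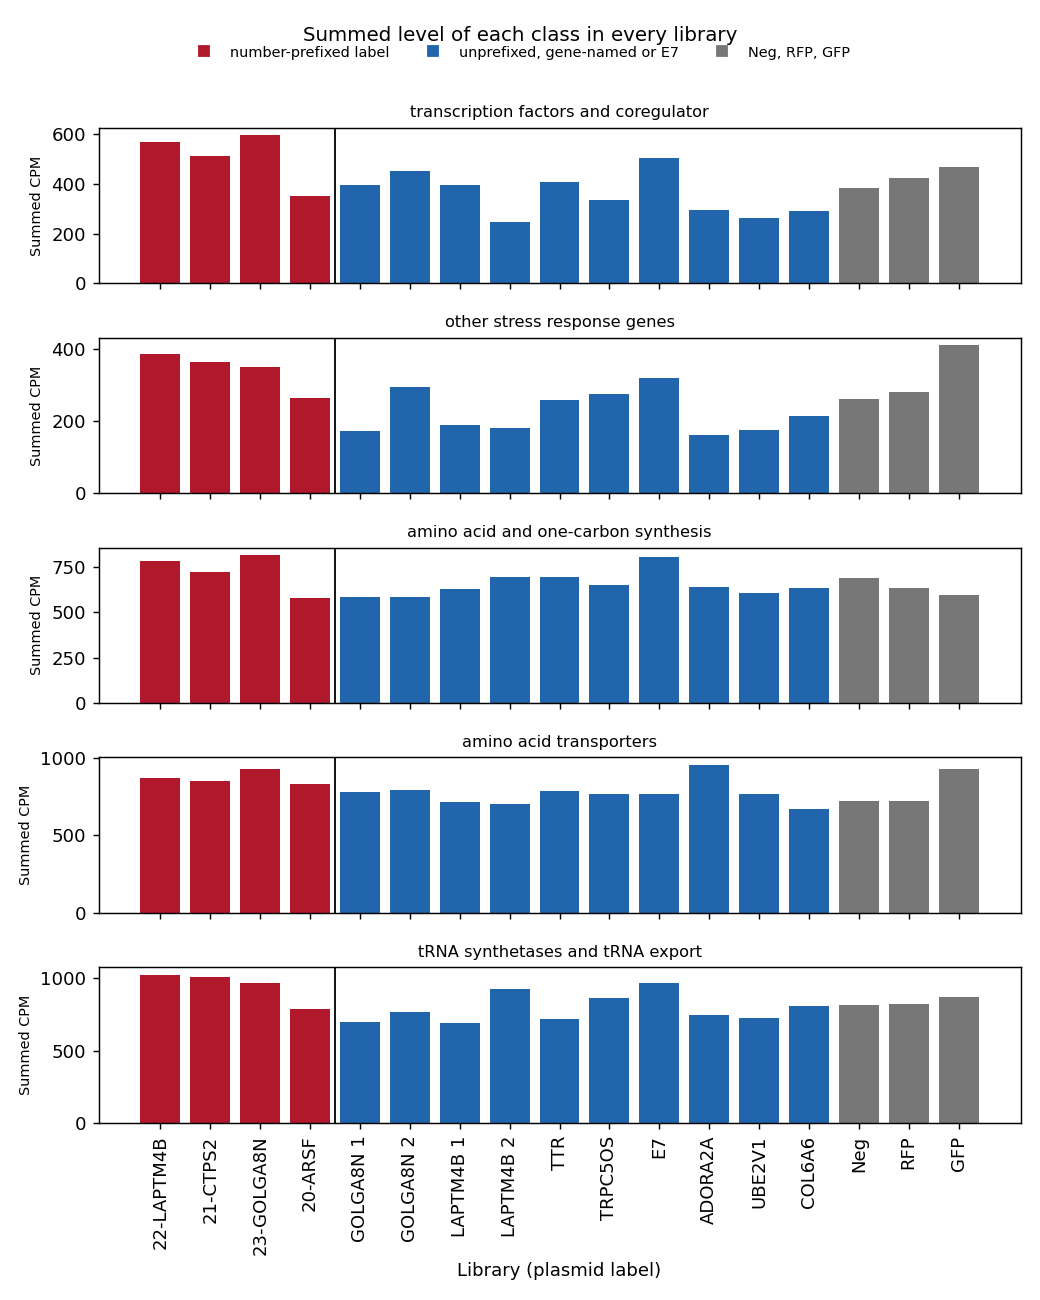
CPM summed over the genes of each class (vertical axes from 0), 1 bar per library, with prefixed libraries left of the line in red, other unprefixed libraries in blue and Neg, RFP and GFP in grey. 22-LAPTM4B, 21-CTPS2, 23-GOLGA8N and E7 hold 4 of the 5 highest sums of the first 2 classes and the 4 highest of the last. GFP has the highest sum of the second class, 410 CPM, and 20-ARSF the lowest synthesis sum, 582 CPM. These orders hold for CPM and change in part in deposited TPM.

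The direction over single genes gave the same libraries. Among 33 genes averaging at least 10 CPM, 27 lay above the median of the other libraries in 23-GOLGA8N, 25 in 22-LAPTM4B, 24 in 21-CTPS2 and 24 in E7, where 47.9%, 44.5%, 53.9% and 50.4% of all 7310 genes at that level did. In 20-ARSF 11 genes did, against 52.3% of all genes, and in UBE2V1 9 did, against 40.4%. The coefficient of variation over 17 libraries had a median of 0.279 for the 33 genes and 0.309 for all genes at that level. The most variable of the 33 were SLC7A11 (0.581), DDIT3 (0.509) and SESN2 (0.422).

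Changes past 2-fold in 1 library, against the median of the other 16 on log2(CPM + 1), were few: 15 in all. In 22-LAPTM4B they were DDIT3 and SLC7A11, both higher, where 1.87% of all genes were 2-fold higher. In GFP DDIT3 was higher and SESN2, PSPH (the last step of serine synthesis) and SARS lower, where 10.8% of all genes were 2-fold higher and 16.5% lower. In UBE2V1 SESN2, the arginine carrier SLC7A1 and the glutamine carrier SLC38A2 were lower (7.05% of all genes). The other 6 were lower as well: ALDH18A1, an early proline enzyme, in 20-ARSF (2.34% of all genes), DDIT3 in GOLGA8N 1 (4.19%), TRIB3 in LAPTM4B 1 (2.82%), SLC7A11 in LAPTM4B 2 (3.41%) and in COL6A6 (5.16%), and STC2 in TRPC5OS (6.36%).

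**Figure D4:**
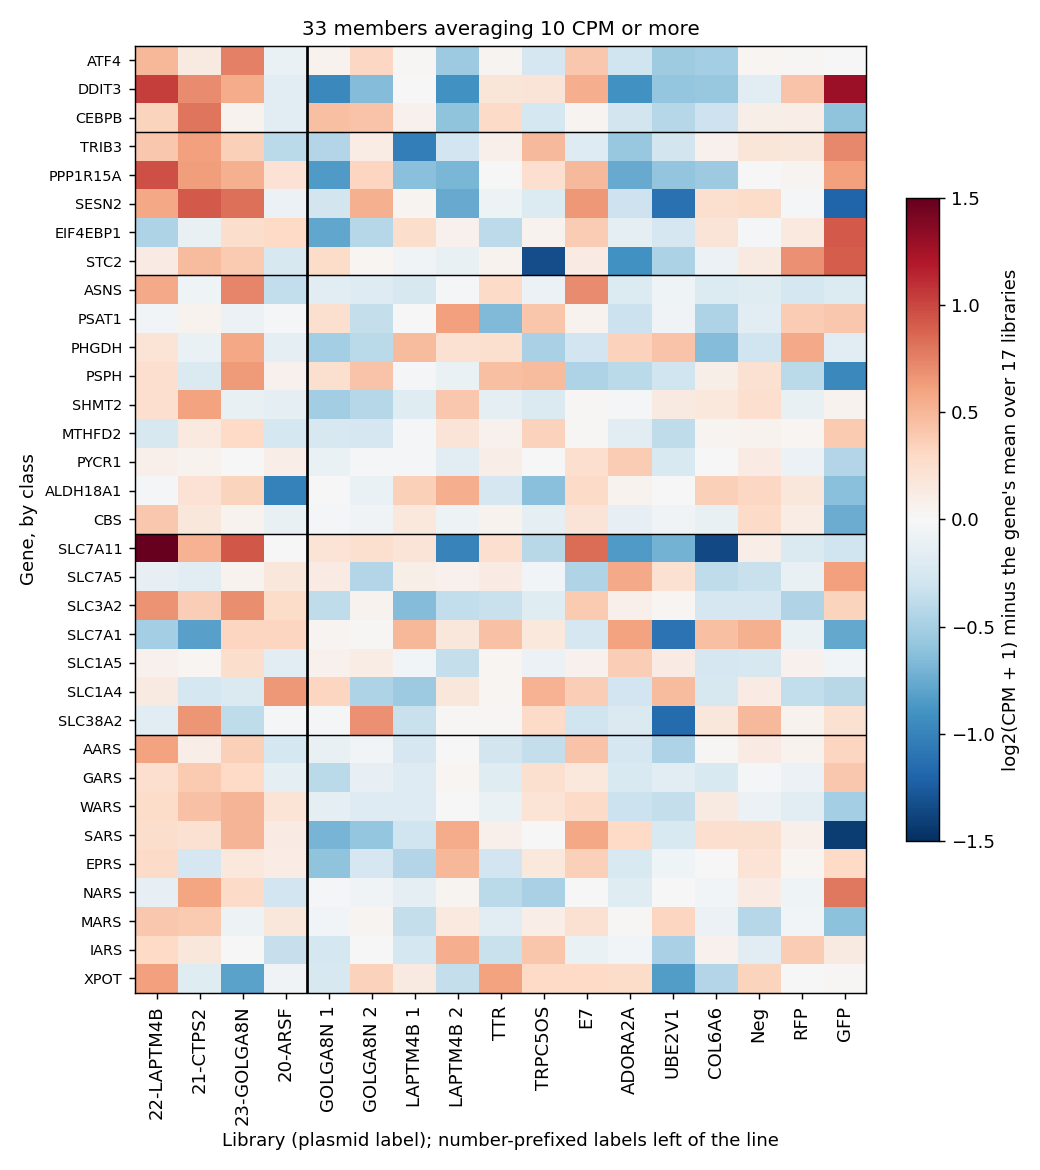
Log2(CPM + 1) minus each gene's mean over 17 libraries (colour scale, cut at 1.5 either way) for 33 genes averaging 10 CPM or more (vertical axis, by class) in every library (horizontal axis). Prefixed libraries stand left of the line; 22-LAPTM4B, 23-GOLGA8N, 21-CTPS2 and E7 are mostly red in the stress genes and synthetases, and UBE2V1, with 9 of 33 genes above the median of the others, is mostly blue.

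GOLGA8N and LAPTM4B are the genes with both prefixed and unprefixed labels, so the prefix could also be compared within them. In this fit of 6 libraries, with the gene as a term, 73 of 11829 genes were called (0.617%) and 3 of 38 stress response and amino acid genes, all higher in the prefixed libraries. DDIT3 had 83.8 CPM in 22-LAPTM4B and 59.7 in 23-GOLGA8N, against 40.4 and 21.1 CPM in LAPTM4B 1 and 2 and 20.2 and 25.3 CPM in GOLGA8N 1 and 2 (log2 fold change 1.44 ± 0.30 SE, edgeR adjusted p 0.0343). ASNS had 256 and 287 CPM in 22-LAPTM4B and 23-GOLGA8N, against 145.5 to 169 CPM in the 4 unprefixed libraries (log2 fold change 0.83 ± 0.16 SE, edgeR adjusted p 0.0192). SLC3A2 had 252 and 256 CPM, against 99.8 to 163 CPM (log2 fold change 1.05 ± 0.18 SE, edgeR adjusted p 0.0104). The DDIT3 values carry the limit given above for reads divided with MARS.

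Without regard to any test, both prefixed libraries lay above all 4 unprefixed ones for 12 of 33 genes averaging at least 10 CPM and below them for 0 of 33, while 10.6% of all genes at that level lay above and 12.8% below. The 12 were ATF4, DDIT3, TRIB3, PPP1R15A, SESN2, ASNS, PYCR1, SLC7A11, SLC3A2, AARS, GARS and WARS. ATF4, for example, had 378 and 454 CPM in 22-LAPTM4B and 23-GOLGA8N, against 184 to 332 CPM. These libraries are part of the comparison of all 17 and are no separate evidence. The prefixed pair, 22-LAPTM4B and 23-GOLGA8N, was also the closest of all 136 pairs of libraries by chi-square over genes. That measure can depend on read depth, and 23-GOLGA8N had the fewest reads after GFP. The prefix difference was compared between the 2 genes in an edgeR interaction term, which called 0 of 38 genes at an adjusted p under 0.05 (0.0501% of all 13981 genes tested). At an unadjusted p under 0.05 it had 3 of the 38 (EIF4EBP1, PPP1R15A and CEBPB), against 4.36% of all genes.

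The GOLGA8N arm was set against Neg, RFP and GFP because the series title concerns GOLGA8. No stress response or amino acid gene was called by edgeR, DESeq2 or limma-voom; edgeR called 2 of 11916 genes (0.0168%). ATF4 measured 278 CPM in GOLGA8N 1, 332 in GOLGA8N 2 and 454 in 23-GOLGA8N, against 274, 271 and 269 CPM in Neg, RFP and GFP. The 3 GOLGA8N values lay above all 3 reference values, the lowest by a narrow margin, as 3.81% of all genes did (log2 fold change 0.53 ± 0.23 SE, edgeR unadjusted p 0.0317, adjusted p 0.848). SLC7A11 and SLC1A5 lay above all 3 reference values as well (edgeR adjusted p 0.966 and 0.891). ASNS had 153, 151 and 287 CPM in the same GOLGA8N libraries, against 152, 143 and 149.6 CPM in Neg, RFP and GFP, so that its log2 fold change of 0.56 (edgeR adjusted p 0.854) came with 1 high library. ATF4 and ASNS were the genes of the set with an unadjusted p under 0.05, where 3.23% of all genes were higher and 2.45% lower. Of 38 genes 20 had a positive log2 fold change, against 50.7% of all genes, with a median of 0.04 against 0.01 for all genes.

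The LAPTM4B arm shares the reference libraries with the GOLGA8N arm, so the comparisons are not independent. edgeR called 0 of 11916 genes (0.0%), with 470 (3.94%) at an unadjusted p under 0.05; DESeq2 called 1 gene and limma-voom 0, and neither called a gene of the set. MARS had 159 CPM in 22-LAPTM4B, 133 in LAPTM4B 2 and 93.6 in LAPTM4B 1, against 89.5, 117 and 78.4 CPM in Neg, RFP and GFP (log2 fold change 0.55 ± 0.24 SE, edgeR unadjusted p 0.0314, adjusted p 1). It was the 1 gene of the set at an unadjusted p under 0.05, where 2.51% of all genes were higher. SLC7A11 had 42.0, 16.03 and 6.41 CPM in 22-LAPTM4B, LAPTM4B 1 and LAPTM4B 2, against 14.8, 11.8 and 11.1 CPM in Neg, RFP and GFP, so that the arm lay on both sides of its reference. Of 38 genes 27 had a positive log2 fold change, against 51.9% of all genes, with a median of 0.18 against 0.02 for all genes. Without 22-LAPTM4B the median of the 38 was -0.05.

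Between the GOLGA8N and LAPTM4B arms, edgeR called 1 of 11916 genes (0.00839%) and none of the set. At an unadjusted p under 0.05 there was 1 gene of the set, lower, where 1.11% of all genes were lower. This was SHMT2, at 61.6 CPM in GOLGA8N 1, 66.1 in GOLGA8N 2 and 82.3 in 23-GOLGA8N, against 78.5, 118 and 106 CPM in LAPTM4B 1, LAPTM4B 2 and 22-LAPTM4B (log2 fold change -0.52 ± 0.24 SE, edgeR adjusted p 1). DESeq2 and limma-voom called none of the set either.

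The 9 unprefixed libraries named for a human gene were set against Neg, RFP and GFP. edgeR called 7 of 12197 genes (0.0574%) and none of the set, and DESeq2 and limma-voom called none of the set. At an unadjusted p under 0.05, 4 genes of the set were lower and 1 higher, where 2.92% of all genes were lower and 5.21% higher. DDIT3 ran from 20.2 CPM through a median of 26.6 to 46.3 CPM in the gene-named libraries, against 36.1, 54.8 and 100.007 CPM in Neg, RFP and GFP (log2 fold change -0.84 ± 0.30 SE, edgeR adjusted p 0.42). ATF3 ran from 0 to 6.52 CPM, against 3.36, 18.004 and 12.7 CPM (log2 fold change -1.71, edgeR adjusted p 0.601). NUPR1 (log2 fold change -2.02, edgeR adjusted p 0.477) and STC2 (log2 fold change -0.67, edgeR adjusted p 0.569) were each highest in GFP. For NUPR1, GFP had 46.7 CPM, while Neg (5.44) and RFP (6.43) lay within the gene-named range of 0.403 to 9.66 CPM. MARS ran from 93.6 through a median of 122 to 151 CPM, against 89.5, 117 and 78.4 CPM (log2 fold change 0.47, edgeR adjusted p 0.464).

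How closely the other genes followed the level of ATF4 was examined across the 17 libraries, a question chosen after the values had been seen. SLC7A11 followed it most closely, with Pearson's r of 0.92 and Spearman's rho of 0.956 on log2(CPM + 1), ranking 1st of 7309 genes. The permutation p was 1e-05 for each, the smallest that 100000 permutations can give, and 0.0146 and 0.0244 when adjusted over all 7309 genes. Leaving out 23-GOLGA8N and LAPTM4B 2, the libraries farthest from the ATF4 median, gave r of 0.926. Within the 13 unprefixed libraries r was 0.93, and the 4 prefixed ones are too few for a value. ATF4 was highest in 23-GOLGA8N and lowest in LAPTM4B 2, UBE2V1 and COL6A6, whereas SLC7A11 was highest in 22-LAPTM4B and lowest in COL6A6, LAPTM4B 2 and ADORA2A.

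Of 32 genes compared with ATF4, 6 had r of at least 0.6, against 2.71% of all genes, and SLC7A11 alone passed the adjusted permutation test, which 0.274% of all genes passed. The others were PPP1R15A (r 0.70, rho 0.60, adjusted permutation p 0.119 and 0.229), SESN2 (r 0.69, rho 0.762, 0.126 and 0.108), AARS (r 0.66, rho 0.591, 0.147 and 0.24), ASNS (r 0.65, rho 0.466, 0.16 and 0.386) and CEBPB (r 0.61, rho 0.743, 0.197 and 0.122). In the 13 unprefixed libraries r for ASNS was 0.366 and for CEBPB 0.713. For 25 of the 32 genes r was above 0, against 50.5% of all genes, and the median r was 0.237 for the 32 genes and 0.0036 for all. SLC7A5 lay at the other end, with r of -0.27 and rho of -0.453 (adjusted permutation p 0.711 and 0.4). For SLC3A2 r was 0.57 over all libraries and 0.226 in the unprefixed ones.

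**Figure D5:**
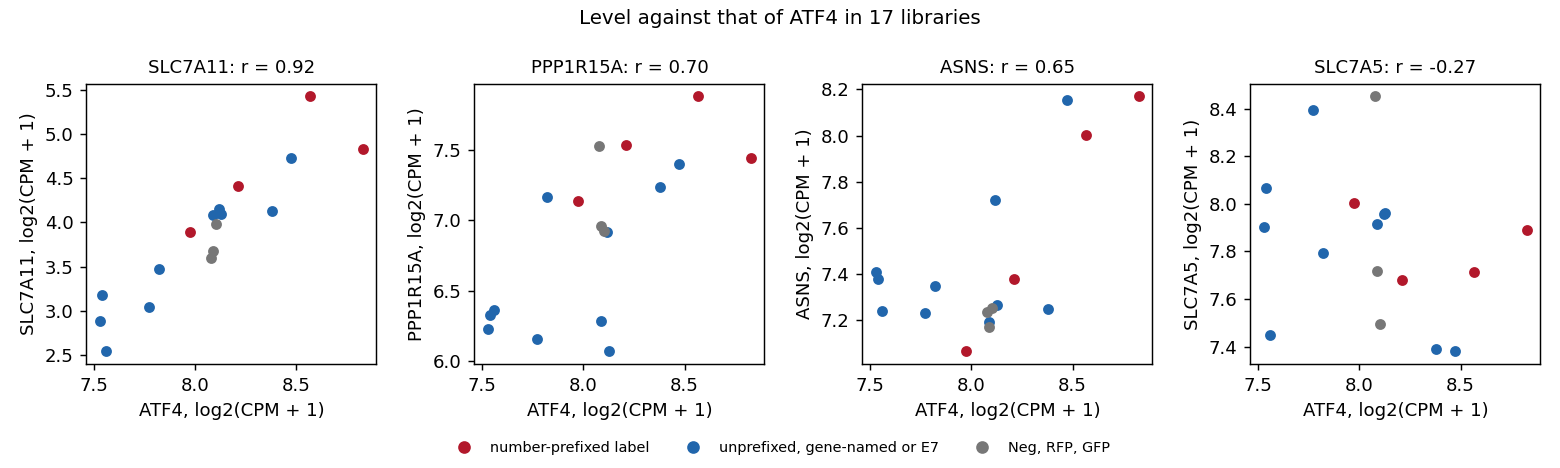
Level of SLC7A11, PPP1R15A, ASNS and SLC7A5 (vertical axes, log2(CPM + 1)) against that of ATF4 (horizontal axes, same scale), 1 point per library, with prefixed libraries in red, other unprefixed ones in blue and Neg, RFP and GFP in grey. SLC7A11 runs along a line (r = 0.92), ASNS is flat apart from 3 libraries at the top right, and SLC7A5 does not rise with ATF4 (r = -0.27).

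Neighbouring pathways were read from lists of genes that hold none of the 40, chosen with earlier results of these data known. Of other reported ATF4 targets, 14 of 17 tested had a positive log2 fold change in prefixed over unprefixed libraries, 0 were called, and 5 were higher and 0 lower at an unadjusted p under 0.05. Over all genes in this comparison 47.8% had a positive one, and 4.46% were higher and 4.9% lower at that threshold. GDF15, a stress hormone that reduces appetite, had 648, 593, 470.2 and 361 CPM in 22-LAPTM4B, 23-GOLGA8N, 21-CTPS2 and 20-ARSF. Its unprefixed values ran from 170.3 through 307 to 420.01 CPM, so 20-ARSF lay within them (log2 fold change 0.87 ± 0.21 SE, edgeR adjusted p 0.105). DDIT4, an inhibitor of mTORC1, had 240.1, 241, 259 and 94.4 CPM in 22-LAPTM4B, 23-GOLGA8N, 21-CTPS2 and 20-ARSF, against a median of 105 and a highest value of 192 CPM in unprefixed libraries (log2 fold change 1.09 ± 0.35 SE, edgeR adjusted p 0.29).

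The unfolded protein response of the ER, which shares DDIT3 and ATF4 with this pathway through the kinase PERK, did not lean one way. Of 21 genes tested, 10 had a positive and 11 a negative log2 fold change and 0 were called, with 1 higher and 2 lower at an unadjusted p under 0.05. CALR, a calcium-binding chaperone, averaged 292 ± 31.1 CPM in prefixed and 416 ± 63.1 CPM in unprefixed libraries (SD; log2 fold change -0.49, edgeR adjusted p 0.0956). SDF2L1, an ER cofactor, averaged 1885 ± 242 CPM and 2448 ± 406 CPM in the same groups (SD; edgeR adjusted p 0.312).

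Cytosolic tRNA synthetases and cofactors outside the 40 genes had 8 positive and 7 negative log2 fold changes and 0 calls. DARS, for aspartate, averaged 125 ± 25.2 CPM in prefixed and 84.5 ± 25.9 CPM in unprefixed libraries (SD; edgeR adjusted p 0.262), and CARS, for cysteine, 63.7 ± 39 CPM and 36.7 ± 14.6 CPM (SD; edgeR adjusted p 0.275). Mitochondrial synthetases had 5 positive and 12 negative signs, 0 calls, and a lowest adjusted p of 0.491 in edgeR, for YARS2. Genes of eIF2, its kinases and its exchange factor eIF2B had 12 positive and 6 negative signs and 0 calls. Their lowest p belonged to EIF2B1 (log2 fold change -0.47, edgeR adjusted p 0.456) and EIF2B2 (log2 fold change 0.76, edgeR adjusted p 0.499), both subunits of eIF2B.

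In the arms, the lists again gave 0 calls. The lowest p among reported ATF4 targets belonged to RHBDD1, a membrane protease, with 15.7 ± 3.96 CPM in the GOLGA8N arm, 13.5 ± 3.05 CPM in the LAPTM4B arm and 3.27 ± 3.38 CPM in the reference libraries (SD, n = 3 each; edgeR adjusted p 0.698 for GOLGA8N over reference and 1 for LAPTM4B over reference). The mitochondrial synthetase YARS2 had a log2 fold change of -2.10 in GOLGA8N over reference (edgeR adjusted p 0.606), with 7.55, 7.83 and 4.2 CPM in GOLGA8N 1, GOLGA8N 2 and 23-GOLGA8N, against 21.2, 15.1 and 64.1 CPM in Neg, RFP and GFP. GFP was far above the other reference libraries. DNAJC3, which restrains PERK, had a log2 fold change of -1.62 in gene-named over reference libraries (edgeR adjusted p 0.42). It ran from 1.72 to 12.99 CPM in the gene-named libraries, against 7.03, 13.5 and 54.5 CPM in Neg, RFP and GFP, with RFP narrowly and GFP far above them.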

How the data were processed

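Each of the 17 deposited files lists 228297 transcripts with estimated counts (expected counts) and TPM, both in Salmon's layout per the file headers; TPM served in 1 alternative only. Per the submitters' processing notes, the builds were GRCh38 and hg38 and the tools UMI-tools, STAR, featureCounts and Salmon; version 0.7.2 stands beside both aligners, which is doubtful for STAR. No source used here says whether molecular identifiers were collapsed, so floors cover counting error only. All pairs of libraries differed by more than counting noise (lowest chi-square per degree of freedom 7.93 over 136 pairs).

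Counts were summed per gene over 205336 transcripts matched to GENCODE 29 by identifier (96.4% to 96.7% of reads), rounded, and compared by edgeR 4.0.16 under R 4.3.3 (scaling by TMM, filterByExpr, robust quasi-likelihood, Benjamini-Hochberg over all genes, threshold 0.05). A standard error is the log2 fold change divided by the square root of F. Arm comparisons used 1 fit of 9 libraries. Alternatives were DESeq2 1.42.0, limma-voom (limma 3.58.1), other size factors and filters, library subsets and leaving out each library.

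The genes and lists were chosen with earlier results of these data known. Named genes were those with p under 0.05 in any comparison, in each class the 2 with the highest mean CPM and the most variable, those under 1 CPM, and those past 2-fold in 1 library; of other lists, up to 2 with the lowest p. Others are named singly where a count or a range needed it.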

Additional observations from a re-analysis of the deposited data

Results flagged for a closer look

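Libraries were looked at for values far from the rest of their group in the groups of 4 to 10, and 4 of 78 groups held one; chance gives about 1 in 20. All were among the 9 unprefixed libraries named for a human gene. ASNS was highest in TTR, at 210.3 CPM, with the other 8 between 145.5 and 169 CPM. PYCR1 was highest in ADORA2A, at 180.0 CPM, with the others between 118 and 148 CPM. SLC7A1 was lowest in UBE2V1, at 15.6 CPM, with the others between 35.1 and 53.3 CPM. The summed transporters were highest in ADORA2A, at 953 CPM, with the others between 672 and 794 CPM.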

How the results depend on the processing

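For prefixed over unprefixed libraries, where edgeR called 1 gene of the set, DESeq2 called 3, limma-voom 2 and edgeR without a filter on low counts 5, and it called 0 with transcripts of no gene kept. It called 3 within the GOLGA8N and LAPTM4B libraries, 4 in the 13 libraries named for a human gene (1.24% of all genes called) and, in an alternative chosen after seeing the data, 4 without E7 and GFP (1.24%). Leaving out 1 library at a time gave 0 to 2; the highest was without E7 (0.847% of all genes called), the libraries that ended the SLC3A2 call are given above, and why they did was not tested. ATF4, ATF3, DDIT3, PPP1R15A and SLC3A2 were called without the filter, where 2.08% of all genes were called and their median log2 fold change was -0.18. The cause was not tested. Over all genes, DESeq2 called 124, limma-voom 55 and the unfiltered fit 557, against 35. For the other 4 comparisons every alternative run gave 0 calls in the set.

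The transporter sum was 1.12 times as high in prefixed as in unprefixed libraries in CPM and 1.24 times in deposited TPM. Changes past 2-fold in a single library numbered 9 with a pseudocount of 5 CPM and 52 without the minimum mean. The alternatives were also followed for each gene and comparison with an unadjusted edgeR p under 0.05. Of these values 417 kept their side of the adjusted threshold, 15 passed it newly, 12 lost it and 0 reversed in sign. Since they were picked for a low p, kept signs were likely from the start and say nothing of the other genes named.

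A replicate block on the numbers 1 and 2 of GOLGA8N and LAPTM4B gave 0 calls in the set and 2 among all genes, as did the same 4 libraries without it; the numbers were not taken to pair samples, since r between same-numbered deviations was 0.0927 over 8119 genes with only 2 pairs. Depth limits GFP most, and genes under 10 CPM elsewhere.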

Other observations

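Genes outside the set that followed ATF4 most closely across the 17 libraries, picked after their values were seen, were BBC3, a pro-apoptotic BH3 protein (r 0.89), ARG2, the mitochondrial arginase (r 0.86), PNCK (r 0.86) and NDRG1 (r 0.82). Their libraries and depth are the same as those of ATF4, and the values are descriptions.

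INHBE, which encodes an activin subunit and is a reported ATF4 target, had 23.5, 19.1, 10.5 and 0.734 CPM in 23-GOLGA8N, 22-LAPTM4B, 21-CTPS2 and 20-ARSF. Its unprefixed values ran from 0 to 11.1 CPM (log2 fold change 1.92, edgeR adjusted p 0.332), so it too was high in 3 of the 4 prefixed libraries and not in 20-ARSF. VEGFA, the vascular growth factor, averaged 36.7 ± 11.9 CPM in prefixed and 21.4 ± 10.5 CPM in unprefixed libraries (SD; edgeR adjusted p 0.357).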
